A study of Homo sapiens with 6 samples.

Results

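MicroRNA genes were examined as places where R-loops were mapped in IMR90 cells, a line of human embryonic lung fibroblasts. The set was every gene of the microRNA type on chromosomes 1 to 22 in the RefSeq annotation of GRCh38, which gave 1793 of the 1913 microRNA genes in that annotation. They were 41 to 180 bp long with a median of 80 bp, so each gene is little more than the stretch that folds into the hairpin. A microRNA gene was said to have a peak where a peak overlapped the gene, or the 200 bp on either side of it, by at least 1 bp. Of the 1793 genes, 285 had a peak in senescent cells, 62 in quiescent cells and 427 in proliferating cells.

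R-loops are three-stranded structures in which RNA pairs with 1 strand of the DNA and displaces the other. MapR, a relative of CUT&RUN, was used to locate them: micrococcal nuclease is fused to a catalytically inactive RNase H (RH-MNase) that binds RNA-DNA hybrids, and it cuts the chromatin around them. Fewer cells with an R-loop at a site and a weaker signal per cell cannot be told apart in such bulk libraries. All cells were wild type by genotype and grown at 2% oxygen. The senescent cells carried ectopic Ras, an oncogene whose overexpression stops the division of fibroblasts, the quiescent cells were starved, and the proliferating cells carried a control vector. Each condition had 1 RH-MNase library and 1 GST-MNase library; the 3 RH-MNase peak lists were used, and GST-MNase is not analysed here. With 1 library per condition no difference between conditions could be tested, and no p-value is given. The intervals below are 95% Wilson intervals on the count of genes, or Newcombe intervals on a difference of shares. They cover counting error only, and since neighbouring genes can share a peak they understate even that.

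The lists differed in size, which bears on every count. The senescent list held 85564 peaks over 54.1 Mb with a median width of 468 bp, the quiescent list 9736 peaks over 4.12 Mb with a median width of 352 bp, and the proliferating list 101802 peaks over 85.4 Mb with a median width of 550 bp. Read depth is unknown, and how much of the difference in list length came from depth was not tested. The labels name 1 library per condition and assay and no replicate. Each peak carried a score given by the authors, with medians of 19 in the senescent, 20 in the quiescent and 22 in the proliferating list. Scores are used here only to describe or rank peaks within 1 list.

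A microRNA is first transcribed as part of a longer primary transcript. The nuclease Drosha cuts the hairpin out of that transcript while it is still on or near the chromatin, and Dicer then trims it to the mature strand. The mature strand finds its messenger RNAs mainly through the seed, bases 2 to 8 from its 5′ end, so genes at different loci that share a seed act on overlapping sets of targets. Many microRNA genes lie in introns of protein-coding genes, and many others lie in long non-coding RNAs named as their host genes (the suffix HG). A peak at a hairpin is a peak in DNA that may be transcribed for other reasons, and MapR does not measure the mature microRNA.

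The mature sequences of the microRNAs that the locus descriptions turn on are shown with the seed in capitals, from RefSeq on GRCh38.p14. The first set is shared by a cluster on chromosome 7, which had a peak in the proliferating list alone, and the MIR17 cluster on chromosome 13, which had no peak in any list. The 2 seeds, AAAGUGC and AUUGCAC, each occur at both loci.
hsa-miR-106b-5p (MIR106B, chromosome 7): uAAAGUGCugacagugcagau
hsa-miR-93-5p (MIR93, chromosome 7): cAAAGUGCuguucgugcagguag
hsa-miR-17-5p (MIR17, chromosome 13): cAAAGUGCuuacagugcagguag
hsa-miR-20a-5p (MIR20A, chromosome 13): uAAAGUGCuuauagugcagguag
hsa-miR-25-3p (MIR25, chromosome 7): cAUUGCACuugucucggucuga
hsa-miR-92a-3p (MIR92A1, chromosome 13): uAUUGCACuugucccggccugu

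The second set comes from paired loci on chromosomes 19 and 9 that encode the same seeds. The chromosome 19 hairpins lay under peaks in senescent and proliferating cells, and the chromosome 9 hairpins had none.
hsa-miR-23a-3p (MIR23A, chromosome 19): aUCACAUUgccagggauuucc
hsa-miR-23b-3p (MIR23B, chromosome 9): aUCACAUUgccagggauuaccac
hsa-miR-27a-3p (MIR27A, chromosome 19): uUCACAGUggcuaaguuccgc
hsa-miR-27b-3p (MIR27B, chromosome 9): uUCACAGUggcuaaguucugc
hsa-miR-24-3p (MIR24-2, chromosome 19, and MIR24-1, chromosome 9): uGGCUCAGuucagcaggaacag

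The third set is from the let-7 family, whose members are classed as restrainers of proliferation, and from the pairs miR-132 and miR-212 and miR-146a and miR-146b. Loci with 1 seed differed in their peaks within each of these groups.
hsa-let-7i-5p (MIRLET7I, chromosome 12): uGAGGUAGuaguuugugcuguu
hsa-let-7b-5p (MIRLET7B, chromosome 22): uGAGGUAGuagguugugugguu
hsa-let-7e-5p (MIRLET7E, chromosome 19): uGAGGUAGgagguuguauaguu
hsa-let-7a-5p (MIRLET7A1, chromosome 9): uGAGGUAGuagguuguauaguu
hsa-miR-132-3p (MIR132, chromosome 17): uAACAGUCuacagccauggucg
hsa-miR-212-3p (MIR212, chromosome 17): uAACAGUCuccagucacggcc
hsa-miR-146b-5p (MIR146B, chromosome 10): uGAGAACUgaauuccauaggcug
hsa-miR-146a-5p (MIR146A, chromosome 5): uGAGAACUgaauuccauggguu

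Peaks were near fewer microRNA genes in senescent and quiescent cells than in proliferating cells. The share with a peak was 15.9% in senescent cells (interval 14.3 to 17.7%), 3.46% in quiescent cells (2.71 to 4.41%) and 23.8% in proliferating cells (21.9 to 25.8%). Over all 56756 genes on these chromosomes, which are mostly far longer, the shares were 43.2% in senescent, 14.2% in quiescent and 46.8% in proliferating cells. Over the 4736 other genes no longer than 180 bp they were 5.74% in senescent, 0.549% in quiescent and 11.9% in proliferating cells. MicroRNA genes had peaks more often than the other short genes, among which 2841 were pseudogenes and 1080 small nucleolar RNA genes. Transfer RNA genes stood above the microRNA genes, with 127 of 439 near a senescent, 19 near a quiescent and 265 near a proliferating peak. Small nuclear RNA genes had 20 of 129 near a senescent (15.5%), none near a quiescent and 40 near a proliferating peak (31.0%), above the microRNA genes in proliferating cells.

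The share of microRNA genes with a peak was lower in senescent than in proliferating cells, with a difference of -7.92 percentage points (interval -10.5 to -5.32), and lower in quiescent than in proliferating cells, with a difference of -20.4 points (-22.5 to -18.2). On average 10.1% of the 200-bp window and hairpin lay under peaks in senescent cells, 1.75% in quiescent cells and 17.8% in proliferating cells. The size of the senescent difference moved with the length of the lists. The proliferating list was shortened by score to 40460 peaks, so that it covered no more of the genome than the senescent list. The share was then 15.9% in senescent cells against 16.1% in proliferating cells, a difference of -0.17 points. The interval of that difference, -2.57 to 2.23, held both signs, so no order was shown at equal covered length. With the 9736 highest-scoring peaks of each list, 3.46% had a peak in senescent cells, 3.46% in quiescent cells and 7.42% in proliferating cells.

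Most senescent peaks at microRNA genes were at genes that had a proliferating peak too. The lists shared 249 genes, which was 87.4% of the senescent and 58.3% of the proliferating ones. The proliferating list alone had a peak at 178 genes, 9.93% of all microRNA genes; the same call held for 6.79% of all genes and 7.05% of the other short genes. The senescent list alone had a peak at 36, or 2.01%, against 3.13% of all genes and 0.929% of the other short genes. All 62 genes with a quiescent peak had a proliferating one, and 60 of them a senescent one; the exceptions were MIR10400 and MIR10392, named after their values were seen.

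A gene without a peak in 1 list often had one close by. Of the 178 genes with a proliferating peak alone, 85 had a senescent peak within 1000 bp, another 62 had one beyond that but within 5000 bp, and 31 had none within 5000 bp. Those 31 were 1.73% of microRNA genes, against 3.5% of all genes and 2.66% of the other short genes. Of the 36 with a senescent peak alone, 8 had no proliferating peak within 5000 bp; this was 0.446% of microRNA genes, against 1.98% of all genes and 0.465% of the other short genes.

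Where both lists had a peak, the senescent peak more often covered less of the hairpin and its flanks. Over the 249 shared genes the median cover was 72.2% in senescent and 100% in proliferating cells. Cover was lower in senescent cells at 140 genes, higher at 29 and equal at 80. The highest-scoring peaks behind these calls had a median width of 1014 bp in senescent and 2139 bp in proliferating cells. At the 62 genes shared by quiescent and proliferating cells, median cover was 52.2% in quiescent and 100% in proliferating cells, and it was lower in quiescent cells at 56 of them. The peak overlapped the hairpin itself, rather than its flanks alone, at 206 of 285 genes in senescent, 38 of 62 in quiescent and 341 of 427 in proliferating cells.

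The share with a peak differed with location. A microRNA gene was placed near a gene end where it lay within 1000 bp of either annotated end of a protein-coding gene, inside where it lay elsewhere within such a gene, and outside otherwise. Of the 213 genes near a gene end, 49.3% had a peak in senescent, 19.2% in quiescent and 63.4% in proliferating cells. Of the 1006 inside a gene, 11.3% had one in senescent, 1.29% in quiescent and 19.2% in proliferating cells. Of the 574 outside genes, 11.5% had one in senescent, 1.39% in quiescent and 17.2% in proliferating cells. The inside and outside intervals overlapped in each list.

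**Figure D1:**
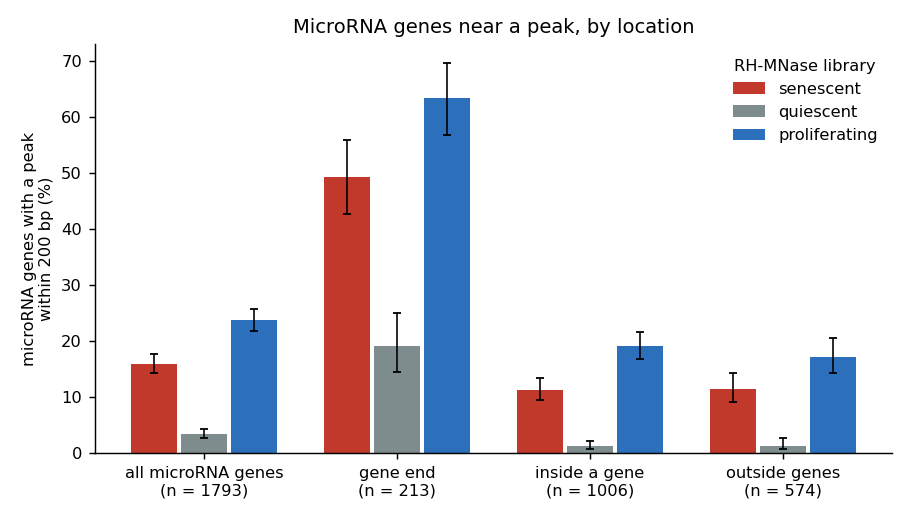
Share of microRNA genes with a peak within 200 bp (vertical axis, percent) in the senescent, quiescent and proliferating RH-MNase libraries, for all genes and by location; black bars are 95% Wilson intervals that cover counting error only. Genes near a gene end stand at 49.3% in senescent, 19.2% in quiescent and 63.4% in proliferating cells, above the inside and outside groups in every list.

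The senescent share was lower than the proliferating share in each location: the difference was -14.1 points near gene ends (interval -23.2 to -4.67), -7.85 points inside genes (-11.0 to -4.72) and -5.75 points outside (-9.81 to -1.69). At equal covered length the differences, senescent minus proliferating, were -7.04 points near gene ends (interval -16.3 to 2.42), 0.40 inside (-2.36 to 3.16) and 1.39 outside (-2.22 to 5.01). The sign inside and outside genes was thus reversed under that setting, but each interval held both signs, so no direction was shown. With the 9736 highest-scoring peaks of each list the differences were -16.4 points near gene ends, -2.09 inside and -2.61 outside, with no reversal. The 213 genes near an end were not alike. Of them, 104 lay near the start of any protein-coding gene of known strand, even if another end was also near. These had peaks at 70 in senescent, 31 in quiescent and 87 in proliferating cells. The 62 near far ends alone had peaks at 17 in senescent, 2 in quiescent and 21 in proliferating cells. The 47 near an end of unread strand, with no known start near, had them at 18 in senescent, 8 in quiescent and 27 in proliferating cells.

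The profile along the 5′ to 3′ axis of the hairpin had the same order. At the middle of the hairpin, 37.9% of the genes near gene ends lay under a peak in senescent, 13.2% in quiescent and 53.3% in proliferating cells. The highest point was at -200 bp in senescent cells, with 40.7%, and at -400 bp in proliferating cells, with 60.4%, negative distances being upstream. Inside genes the share at the hairpin was 7.32% in senescent and 13.7% in proliferating cells. At 10000 bp upstream it was 7.56% in senescent and 12.7% in proliferating cells, and at 10000 bp downstream 6.22% in senescent and 10.0% in proliferating cells. The highest value inside genes was 9.27% in senescent cells, at both -2200 and -600 bp. In proliferating cells it was 15.2%, at both -2200 and -800 bp. The lowest was downstream, with 4.76% at both 1800 and 2000 bp in senescent and 8.05% at 8600 bp in proliferating cells.

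**Figure D2:**
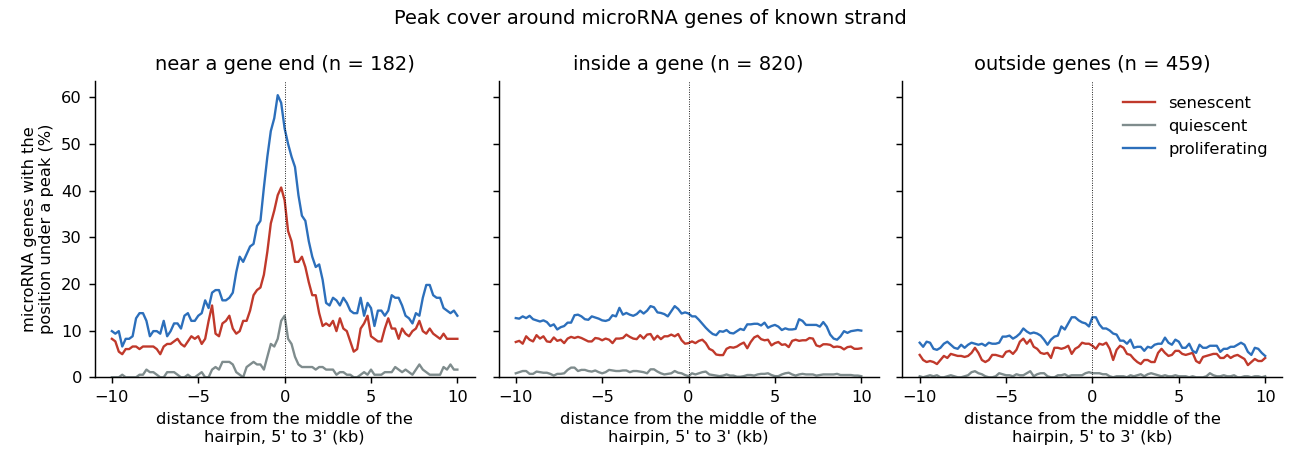
Percent of microRNA genes whose position at a given distance lies under a peak (vertical axis), from 10 kb upstream to 10 kb downstream of the middle of the hairpin along the microRNA's strand (horizontal axis), for the senescent, quiescent and proliferating RH-MNase libraries; only genes with a strand in the sequence table are drawn. Near gene ends the curves reach 40.7% in senescent, 13.2% in quiescent and 60.4% in proliferating cells close to the hairpin; inside genes they run between 4.76% and 9.27% in senescent and between 8.05% and 15.2% in proliferating cells.

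For the 1006 genes inside a protein-coding gene, cover at the hairpin was set beside cover of the whole host. The mean was 6.68% at the hairpin and 7.35% over the host in senescent cells, 0.456% and 0.747% in quiescent cells, and 12.8% and 11.5% in proliferating cells. Of the 101 inside genes with a proliferating peak and no senescent one, 98 had a host with a peak at one of its own ends in proliferating cells, and for 90 of those genes the host had one in senescent cells too. Over all 1006 inside genes the host had such a peak for 845 in senescent and 899 in proliferating cells. Of the 193 inside genes with a proliferating peak, 186 had such a host in proliferating cells. In proliferating cells 20.7% of inside genes had a peak where the host had one at an end, and 6.54% of 107 where it had none. In senescent cells the shares were 12.0%, and 8.07% of 161. Why they differed was not tested.

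Chromosomes differed in the share of their microRNA genes with a peak. In proliferating cells it was highest on chromosome 17, with 42 of 110 genes (38.2%), and lowest on chromosome 18, with 3 of 35 (8.57%). In senescent cells chromosome 11 was highest, with 31 genes (30.4%), and in proliferating cells 35.3% of its genes had one.

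Genes with peaks had hairpins rich in G and C. The hairpin sequence was at hand for 1461 of the 1793 genes. Median GC content was 61.2% in hairpins with a senescent peak and 50.6% in those without, 70.4% and 51.7% for quiescent peaks, and 61.5% and 48.9% for proliferating peaks. In the lowest of 5 equal groups by GC content 3.41% had a senescent peak, none of 293 a quiescent peak (upper Wilson limit 1.29%) and 7.17% a proliferating peak. In the highest group the shares were 35.3% for senescent, 13.7% for quiescent and 52.7% for proliferating peaks. The medians differed in the same direction in every location for senescent and proliferating peaks. Outside genes, for example, the median was 56.4% with and 46.6% without a senescent peak, and 57.5% with and 45.7% without a proliferating peak. GC content can also affect library preparation and mapping, and its part in these calls was not tested.

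**Figure D3:**
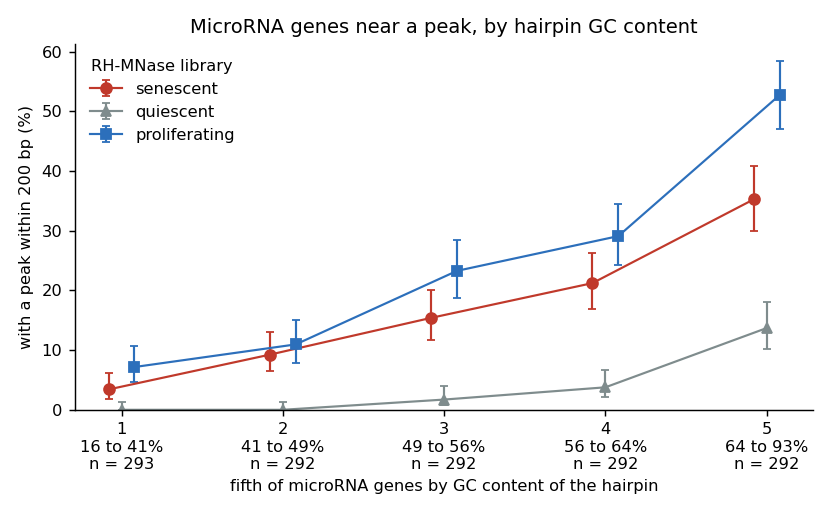
Share of microRNA genes with a peak within 200 bp (vertical axis, percent) in 5 equal groups by GC content of the hairpin (horizontal axis, low to high), for the senescent, quiescent and proliferating RH-MNase libraries; bars are 95% Wilson intervals. The share in the highest group is 35.3% in senescent, 13.7% in quiescent and 52.7% in proliferating cells.

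Genes were joined into a cluster where neighbours lay within 10000 bp. The cluster with the largest change in the number of genes with a peak was MIR25, MIR93 and MIR106B. It lies at chr7:100093560-100094074 in MCM7, which encodes a subunit of the replicative helicase; MIR25 is within 1000 bp of the end of MCM7. Its members target, among others, messenger RNAs of cell-cycle inhibitors. In senescent and in quiescent cells none of the 3 had a peak, and the nearest senescent peak lay 4029 to 4462 bp away. In proliferating cells 1 peak of 602 bp with a score of 17, below the median of its list, covered 23.3% of the MIR25 window, 66.0% of the MIR93 window and all of the MIR106B window. The peak overlapped the hairpins of MIR93 and MIR106B and began 88 bp from that of MIR25. Another 4 proliferating peaks and 1 senescent peak lay within 5000 bp of the cluster. The peak was dropped at equal covered length, where none of the 3 kept its call. The MIR17 cluster on chromosome 13, which shares both seeds with it, had no peak within 200 bp of any of its 6 members in any list. The start of its host gene MIR17HG did have peaks, which covered all of the 300-bp start window in senescent (score 24) and in proliferating cells (score 55). MIR17 lay 1350 bp from the nearest senescent and 1260 bp from the nearest proliferating peak.

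MIRLET7I, of the let-7 family, had a wide proliferating peak and none nearby in senescent cells. It lies at chr12:62603686-62603769, outside protein-coding genes and downstream of the start of its host gene MIRLET7IHG. In senescent cells the nearest peak was 27750 bp away. In quiescent cells a peak of 295 bp with a score of 12 lay 772 bp from the hairpin. In proliferating cells a peak of 2369 bp with a score of 46 covered both the hairpin and the host start. The call, proliferating without senescent, was kept at equal covered length and lost with the 9736 highest-scoring peaks of each list. The start window of MIRLET7IHG, 250 bases before to 50 after the annotated start at chr12:62602493-62602792 on the plus strand (RefSeq, GRCh38.p14), is shown because all 300 bases lay under the proliferating peak, 173 under the quiescent peak and none under a senescent one; capitals mark the bases under the quiescent peak. It has a GC content of 65% and 27 CG dinucleotides.
MIRLET7IHG: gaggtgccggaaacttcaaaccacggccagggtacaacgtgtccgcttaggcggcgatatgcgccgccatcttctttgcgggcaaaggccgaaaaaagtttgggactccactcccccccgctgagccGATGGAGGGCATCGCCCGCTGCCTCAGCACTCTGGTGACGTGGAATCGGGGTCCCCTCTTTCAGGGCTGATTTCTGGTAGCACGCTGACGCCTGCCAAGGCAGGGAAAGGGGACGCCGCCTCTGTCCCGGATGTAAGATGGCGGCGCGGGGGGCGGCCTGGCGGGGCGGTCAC

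Of the 11 let-7 family genes on these chromosomes, 2 had a peak in senescent (18.2%), none in quiescent and 5 in proliferating cells (45.5%), where all microRNA genes had 15.9% in senescent and 23.8% in proliferating cells. MIRLET7A3 and MIRLET7B, neighbours on chromosome 22, had peaks in both: cover was 42.8% in senescent and 45.8% in proliferating cells at MIRLET7A3, and 46.2% in senescent and 100% in proliferating cells at MIRLET7B. MIR202 was covered in full in proliferating cells and had its nearest senescent peak at 1392 bp. It is not among the 12 genes grouped by the seed GAGGUAG, of which 2 had a senescent and 4 a proliferating peak. MIRLET7E, in a cluster with MIR99B and MIR125A, had 21.5% cover in proliferating cells from the edge of a 5049-bp peak, and a senescent peak 423 bp away. MIRLET7A1 had none in any list, with the nearest peak 9574 bp away in senescent, 8824 bp in quiescent and 6991 bp in proliferating cells. At equal covered length MIRLET7I and MIRLET7E kept their proliferating peaks and MIR202 lost its own. MIRLET7A3 and MIRLET7B then had a senescent peak alone.

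**Figure D4:**
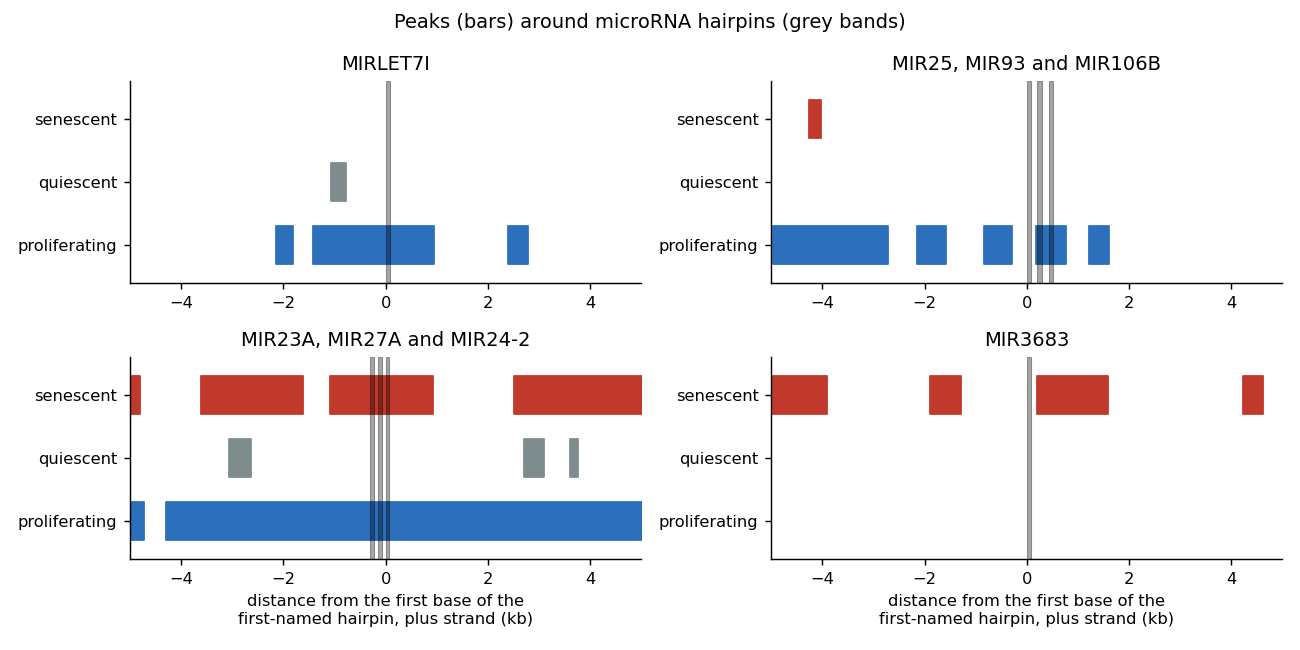
Peaks (bars) of the senescent, quiescent and proliferating RH-MNase libraries around 4 loci, against the distance in kb from the first base of the first-named hairpin along the plus strand; grey bands are the hairpins and bars cut at the edge run on. MIRLET7I, MIR93 and MIR106B lie under proliferating peaks alone, the MIR23A cluster under senescent and proliferating peaks, and MIR3683 has 4 senescent peaks in view, the nearest 114 bp away, and no quiescent or proliferating one.

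The MIR23A cluster lay in a wide region with peaks in senescent and proliferating cells. MIR23A, MIR27A and MIR24-2 lie within chr19:13836287-13836659, outside protein-coding genes, and their products are abundant in fibroblasts. All 3 were covered in full, by a 2018-bp peak with a score of 27 in senescent cells and an 11745-bp peak with a score of 62 in proliferating cells. The nearest quiescent peak was 2342 to 2627 bp away. The start window of the host gene MIR23AHG was covered by 100% in senescent, 31.3% in quiescent and 100% in proliferating cells. MIR23B, MIR27B and MIR24-1 on chromosome 9 encode the same seeds inside AOPEP and had no peak in any list, with no senescent peak within 3746 bp and no proliferating peak within 1209 bp. MIR23B and MIR27B were chosen for this comparison after the values were seen.

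Other genes with a common seed were counted the same way, in a search added after the values were seen. A group was made for each seed, so a gene can be in several groups, and some groups hold the same genes. Of 348 such groups of 2 or more genes, 200 had no peak at any gene in senescent or proliferating cells. Over all microRNA genes 15.9% had a peak in senescent and 23.8% in proliferating cells. No count expected from these shares was worked out, so the group counts only describe. In senescent cells 79 groups had a peak at some of their genes and 11 at all; in proliferating cells these numbers were 115 and 27.

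In all, 409 microRNA genes formed 137 clusters of 2 or more and 1384 stood alone. Neighbouring genes overlapped in 54 cases, and the calls of overlapping genes are not separate observations, though the counts below treat each gene as a member. At least 1 member had a peak in senescent or proliferating cells in 58 clusters. The number of members with a peak was lower in senescent than in proliferating cells in 26 clusters, higher in 5 and equal in 27. In 18 of the 26 every peak was missing in senescent cells. At equal covered length the counts were 13 lower and 16 higher. Totals were compared, so the members behind them could differ. In the MIR142 cluster, counted as equal, MIR142 alone had a senescent and MIR4736 alone a proliferating peak. In the MIR192 cluster the 1 member with a senescent peak, MIR6750, had no proliferating one. The 9 changed clusters of 3 or more members had fewer in senescent cells in each case. Besides the MIR25 and MIR99B clusters they were MIR5692A2 with MIR3926-1 and MIR3926-2, MIR1179 with MIR7-2 and MIR3529, MIR192 with MIR194-2, MIR6750 and MIR6749, the MIR449A cluster, the MIR200B cluster, the MIR3677 cluster, and the 42-member MIR379 cluster on chromosome 14. In the last, a peak 162 bp from MIR323B in proliferating cells was the sole call. The 5 clusters with more in senescent cells each had 2 members: MIR4520-1 and MIR4520-2, where both had a senescent and neither a proliferating peak, and those of MIR5700, MIR7113, MIR296 and MIR6511A2, each with 1 member near a senescent peak and none near a proliferating one. MIR4520-1 and MIR4520-2 overlap at chr17:6655440-6655509, so their calls are 1 observation. These 5 were named after their values were seen.

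The lists of microRNAs used here were drawn up with earlier results of these data known and are described by counts alone. Of 31 genes of microRNAs known to be abundant in fibroblasts, 10 had a peak in senescent, 4 in quiescent and 15 in proliferating cells, or 32.3% in senescent, 12.9% in quiescent and 48.4% in proliferating cells, where all microRNA genes had 15.9% in senescent, 3.46% in quiescent and 23.8% in proliferating cells. MIR152, inside COPZ2, was covered in full in all 3 lists. MIR199B, inside DNM1, had a cover of 100% in senescent, 57.5% in quiescent and 100% in proliferating cells. Its sister MIR199A1, inside DNM2, had 79.4% in senescent, 29.7% in quiescent and 100% in proliferating cells. The third copy, MIR199A2 inside DNM3, had 29.2% in senescent, 0% in quiescent and 100% in proliferating cells. All 3 encode the same mature 3′ strand, and each lies in a gene for a dynamin, a GTPase of membrane scission.

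MIR22, whose product is known for promoting senescence when supplied to fibroblasts, had the highest-scoring proliferating peak of the named fibroblast genes. That peak was 4322 bp wide with a score of 91 and covered 78.6% of the MIR22 window. The nearest senescent peak was 258 bp away and the nearest quiescent peak 294 bp away, just past the 200-bp limit, and within 1000 bp the locus had a peak in each list. The start window of its host gene MIR22HG was covered by 40% in senescent and 100% in proliferating cells. MIR125B1 was covered in full in proliferating cells by a 4203-bp peak and lay 1048 bp from the nearest senescent peak. MIR10A, inside HOXB3, had 23.7% cover in senescent and 100% in proliferating cells, where the peak was 21564 bp wide. MIR10A was the sole gene whose proliferating call rested on a peak wider than 20000 bp.

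In some pairs of neighbouring fibroblast microRNAs 1 gene had a senescent peak and the other had none. MIR143 and MIR145, linked to smooth muscle and myofibroblast states, are 1 cluster on chromosome 5. MIR143 had 0% cover in senescent and 54.5% in proliferating cells, and MIR145 had 40.4% in senescent and 88.9% in proliferating cells. MIR132 had 48.5% in senescent, 36.1% in quiescent and 100% in proliferating cells, while MIR212 next to it had 0% in senescent, 0% in quiescent and 66.7% in proliferating cells. The nearest senescent peak was 321 bp from MIR212 and 1499 bp from MIR143.

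**Figure D5:**
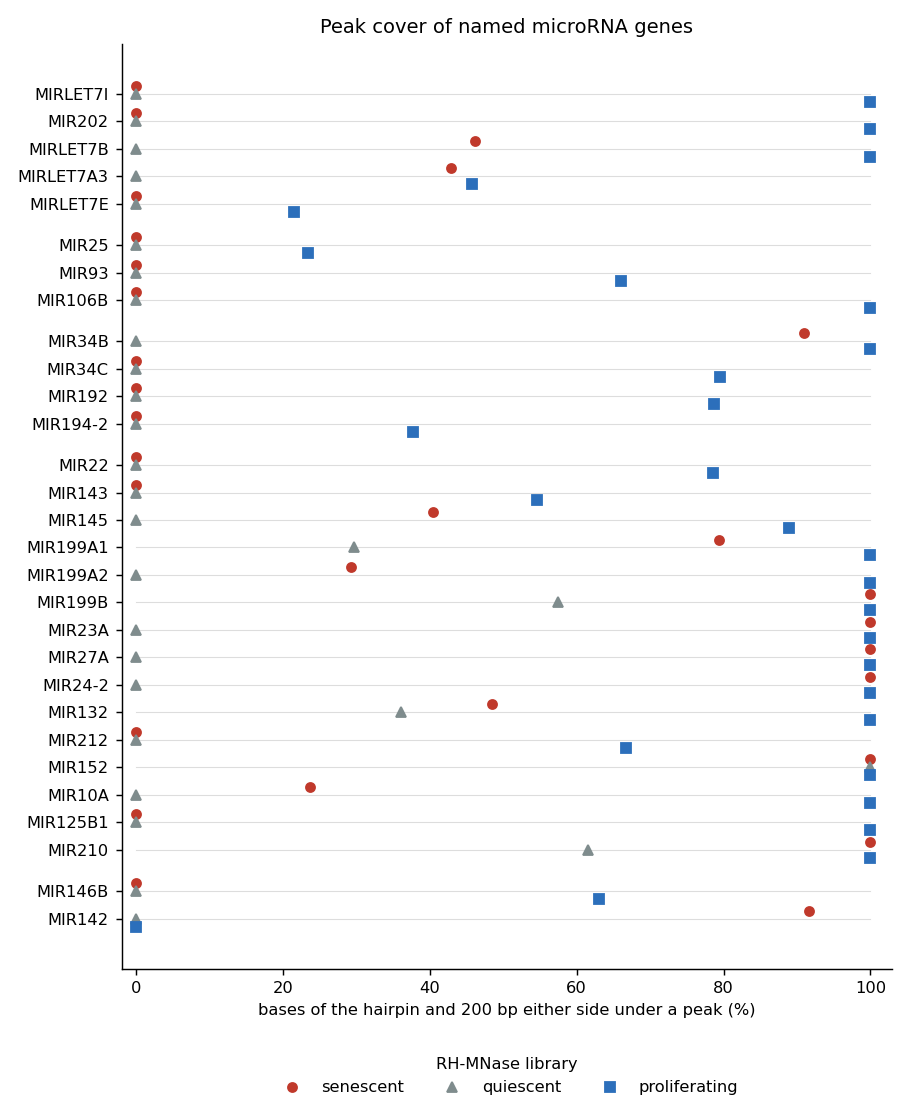
Percent of the hairpin and its 200-bp flanks under a peak (horizontal axis) for 29 of the microRNA genes named in the text (vertical axis), from the let-7, MIR106B, p53-responsive and fibroblast groups with MIR210, MIR146B and MIR142, in the senescent, quiescent and proliferating RH-MNase libraries; points of 1 gene are offset vertically. Among these 29 genes proliferating cover is the highest or equal highest except at MIR142, which has 91.6% cover in senescent cells and none in proliferating cells.

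Of 12 genes of microRNAs that respond to p53, the tumour suppressor that is active in Ras-induced senescence, 2 had a peak in senescent (16.7%), none in quiescent and 6 in proliferating cells (50%). Over all microRNA genes the shares were 15.9% in senescent and 23.8% in proliferating cells. MIR34A had none within 200 bp, with the nearest senescent peak at 1153 bp and the nearest proliferating peak at 1498 bp. The start window of its host gene MIR34AHG, far upstream, was covered in full by a 4037-bp proliferating peak with a score of 41; no senescent peak overlapped it, and the nearest was 98 bp away. MIR34B had 90.9% cover in senescent and 100% in proliferating cells. MIR34C, in the same transcript, had a proliferating cover of 79.5% and lay 203 bp from the nearest senescent peak. MIR192 and MIR194-2, on chromosome 11, shared 1 proliferating peak with a score of 13 and had none within 200 bp in senescent cells. Among the 12 genes, MIR143, MIR192, MIR194-2 and MIR34C had a proliferating peak and no senescent one. MIR143, MIR192 and MIR194-2 lost that call at equal covered length, while MIR34C kept it. MIR34C lost it with equal numbers of peaks. The excess of proliferating peaks among these genes thus moved with the length of the lists.

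Among 23 genes of microRNAs named for roles in senescence or its inflammatory secretion, 1 had a peak in senescent (4.35%), none in quiescent and 3 in proliferating cells (13.0%), both below the 15.9% in senescent and 23.8% in proliferating cells over all microRNA genes. Those were MIR24-2 in senescent cells, and MIR24-2, MIR22 and MIR146B in proliferating cells. MIR146B had a cover of 63.0% in proliferating cells and a senescent peak 949 bp away. MIR146A, which restrains NF-kB signalling and is induced in senescent fibroblasts, had no peak: the nearest was 8524 bp away in senescent and 17573 bp in proliferating cells. MIR21 had none within 200 bp, with the nearest at 11455 bp in senescent and 966 bp in proliferating cells. MIR155 had none either, at 11225 bp in senescent and 5453 bp in proliferating cells.

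The host starts of these genes were looked at separately, in a search added after the data were seen. Start windows were at hand for 65 host genes of microRNAs, counting several starts of 1 gene together. A peak overlapped a start window at 25 of them in senescent (38.5%), 7 in quiescent (10.8%) and 37 in proliferating cells (56.9%). Over 11145 long non-coding RNA genes the shares were 24.7% in senescent, 6.20% in quiescent and 33.5% in proliferating cells, and over 15101 protein-coding genes 57.3% in senescent, 19.6% in quiescent and 72.4% in proliferating cells. Starts of 13 of the 65 host genes had a proliferating peak and no senescent one, MIRLET7IHG and MIR34AHG among them; the same held for 1204 of the 11145 long non-coding RNA genes and 2557 of the 15101 protein-coding genes.

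A senescent start peak without a proliferating one was found at 1 of the 65 host genes, 223 of the 11145 long non-coding RNA genes and 269 of the 15101 protein-coding genes, so the count for host genes is near the background. The host gene was MIR3142HG, from which MIR3142 and MIR146A are transcribed. A 540-bp senescent peak with a score of 31, at chr5:160467854-160468393, covered the whole start window. In proliferating cells a 313-bp peak with a score of 15 ended 222 bp upstream of that window. MIR155HG, the host of MIR155, had its start window covered in full in senescent (score 23) and in proliferating cells (score 34). Of 111 microRNA genes that lie within such host transcripts, 10 had a peak at both the hairpin and the host start in senescent cells, 11 at the hairpin alone and 33 at the host start alone. In proliferating cells the counts were 28 with both, 9 with the hairpin alone and 33 with the host start alone.

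Only 8 microRNA genes had a senescent peak with no proliferating peak within 5000 bp. MIR3683 had the highest score of them: a 1394-bp senescent peak with a score of 28 lay 114 bp from the hairpin, and the nearest proliferating peak was 32277 bp away. Another 3 senescent peaks lay within 5000 bp of it. MIR3664, inside SHANK2, was next with a 414-bp peak and a score of 23. MIR9983, MIR3935, MIR4279, MIR587, MIR1825 and MIR5100 had senescent scores of 11 to 19, at or below the median of the list. At equal covered length only the proliferating list was shortened, so these 8 could not lose the call there. None kept it with the 9736 highest-scoring peaks of each list. Among microRNAs of other tissues, MIR142, a marker of blood cells, had 91.6% cover in senescent cells from a 449-bp peak with a score of 13, and its nearest proliferating peak was 1436 bp away.

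Among the 31 genes with a proliferating peak and no senescent peak within 5000 bp, MIR6090, inside the transcription factor gene ETS1, had the highest score with 55. MIR3926-1 and MIR3926-2, overlapping genes inside LONRF1, followed with a score of 46 from 1 peak, as high as that of MIRLET7I. MIR423 and MIR3184, near an end of NSRP1, had a score of 36 from 1 peak. MIR423 and MIR3184 overlap on opposite strands, so their calls are 1 observation. MIR3143, near ends of the histone genes H2AC12 and H2BC12, had a 2537-bp proliferating peak with a score of 32 and no senescent peak within 7506 bp. All of these kept the call at equal covered length, and of them MIR6090 alone kept it with the 9736 highest-scoring peaks of each list.

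Other genes ranked high in both the senescent and the proliferating list. MIR933, near an end of ATF2, had scores of 45 in senescent and 96 in proliferating cells and a cover of 100% in senescent, 51.8% in quiescent and 100% in proliferating cells. MIR4710, outside protein-coding genes on chromosome 14, had scores of 57 in senescent and 85 in proliferating cells and was covered in full in all 3 lists. MIR4492, inside BCL9L, and MIR12128, inside GSE1, had senescent scores of 58 and 66, and proliferating scores of 75 and 72, without a quiescent peak within 200 bp.

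Peaks present in all 3 lists marked 60 microRNA genes, of which 40 were near a gene end, 12 inside a gene and 8 outside. By quiescent score MIR639, inside TECR and DNAJB1, came first, with scores of 29 in senescent, 38 in quiescent and 82 in proliferating cells. MIR564, at the start of TMEM42, had 25 in senescent, 36 in quiescent and 46 in proliferating cells. MIR210, the main microRNA induced by low oxygen, had 33 in senescent, 31 in quiescent and 44 in proliferating cells. Its window was covered by 100% in senescent, 61.6% in quiescent and 100% in proliferating cells. The start window of its host gene MIR210HG was covered in full in every list. All 3 conditions were grown at 2% oxygen, so the data hold no contrast in oxygen.

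The series used here holds no expression values, so the labelled cell type could not be checked against RNA markers. MicroRNAs of other tissues are described in place of such markers. A peak near a hairpin does not measure the microRNA, so these counts cannot decide cell identity. None of the 46 genes of the chromosome 19 placental cluster had a peak in any list, and of 51 in the chromosome 14 imprinted cluster none had one in senescent, none in quiescent and 1 in proliferating cells. Among 42 genes of microRNAs typical of other tissues, 6 had a peak in senescent, none in quiescent and 9 in proliferating cells; these were 14.3% in senescent and 21.4% in proliferating cells, where all microRNA genes had 15.9% in senescent and 23.8% in proliferating cells. Of the genes with a peak, MIR150 of lymphocytes was covered in full in both, and MIR96, of sensory hair cells, by 54.6% in senescent and 100% in proliferating cells. In the epithelial MIR200B cluster, MIR200B had 0% in senescent and 11.7% in proliferating cells, MIR200A 58.6% in senescent and 100% in proliferating cells, and MIR429 100% in senescent and 59.6% in proliferating cells. Of 13 mirtrons, whose hairpins are whole introns that need no Drosha, 1 had a peak in senescent (7.69%), none in quiescent and 3 in proliferating cells (23.1%).

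Genes with near-identical copies are uncertain, since the sources used here do not say how reads that map to several places were handled. Of the 1793 genes, 237 share a hairpin or a mature strand with another. MIR6724-1 to MIR6724-4 and MIR3648-1, in the ribosomal DNA region of chromosome 21, had proliferating scores of 69 to 101 from peaks of 3364 to 4131 bp. In senescent cells MIR6724-1 had a score of 15 and MIR6724-3 a score of 18, and the other 3 had no peak within 200 bp. MIR663A, which lies close to the centromere of chromosome 20, had a proliferating peak with a score of 18 and its nearest senescent peak 197405 bp away. Without all 237 genes the shares were 16.9% in senescent, 3.66% in quiescent and 25.4% in proliferating cells.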

How the data were processed

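The deposited files were 3 peak lists, 1 per RH-MNase library, with positions on GRCh38 and a score per peak that the authors gave without stating its scale; the scores run from 10 to 151. Per the submitters' processing notes, MACS2 2.2.7.1, Bowtie2 2.4.5 and FastQC 0.11.9 were among the tools. The peak-calling settings, read filters, use of the GST-MNase libraries and read depth are not stated by any source used here. Each list belongs to 1 library; whether reads were pooled or peaks merged is not stated.

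Gene positions and types came from the RefSeq table of GRCh38.p14. Peak starts were counted from 1. A call needed an overlap of at least 1 bp with the gene and 200 bp on each side. Strand and hairpin sequence came from the RefSeq microRNA table, and start windows (250 bases before, 50 after) from the promoter table; neither holds chromosome 8, and strand was at hand for 15101 of 19126 protein-coding genes. Clusters joined neighbours within 10000 bp. The members, the lists and the rules were chosen with earlier results of these data known. Named genes were the highest-scoring calls of each contrast, changed clusters of 3 or more, called members of the lists, and 8 genes by name; others are marked where they appear. Calls were tested on simulated peaks. Python 3.11.15, pandas 2.3.3, numpy 2.4.6 and matplotlib 3.10.9 were used. Replicates were not available, so no test was run; alternatives were other windows, shorter lists, other units and other gene-end distances.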

Additional observations from a re-analysis of the deposited data

How the results depend on the processing

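No paired analysis was possible because each condition had 1 library. Over all microRNA genes the senescent value was below the proliferating one in every alternative tried, but not inside and outside genes. At equal covered length the difference, senescent minus proliferating, was -0.167 points over all genes (interval -2.57 to 2.23), 0.398 inside (-2.36 to 3.16) and 1.39 outside (-2.22 to 5.01). The values inside and outside were reversed, but each interval held both signs, so no order was shown under that setting. With equal numbers of peaks neither reversed. Near gene ends the interval also held both signs at equal covered length (-16.3 to 2.42) and with a window of 1000 bp (-14.9 to 1.93). The same held outside genes when long non-coding RNA genes were added to the classes (-8.56 to 1.69). By construction the proliferating list is shorter at equal covered length. That setting gave 16.1% with a proliferating peak, -12.6 points for quiescent minus proliferating, 77 genes with a senescent and 80 with a proliferating peak alone, and 13 clusters lower and 16 higher in senescent cells. With equal numbers of peaks, 3.46% had a senescent and 7.42% a proliferating peak, both differences from proliferating cells were -3.96 points (-2.09 inside genes for senescent), and 22 genes had a senescent and 93 a proliferating peak alone. Mean cover was then 2.29% in senescent and 6.41% in proliferating cells, with 16 clusters lower and 3 higher in senescent cells. The senescent, quiescent and proliferating shares were 11.5, 2.12 and 19.02% with no window, 27.1, 6.86 and 33.9% with 1000 bp, 11.5, 2.12 and 17.5% when peaks below the median score were dropped, and 10.3, 1.84 and 17.8% where at least 50% of the gene had to be covered. Quiescent minus proliferating was -16.9 points with no window, -27.0 with 1000 bp, -15.3 at the median score and -16.0 for 50% cover. A window of 1000 bp left 61 genes with a senescent peak alone, and without the 237 genes with copies 3 clusters were higher in senescent cells. Of the 802 values of the named genes, 174 moved and 628 stayed the same. Each alternative could only remove calls or only add them, so no call of a named gene could reverse. The cause of these shifts was not tested. Read depth is unknown, and 1 library per condition limits every comparison.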

Other observations

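MicroRNA genes numbered 1000 or more, which were on the whole found later by deep sequencing, had peaks at 217 of 1235 in senescent (17.6%), 50 in quiescent (4.05%) and 317 in proliferating cells (25.7%). Of the 558 numbered below 1000, 68 had a peak in senescent (12.2%), 12 in quiescent (2.15%) and 110 in proliferating cells (19.7%). The share near a gene end was 13.6% in the higher-numbered and 8.06% in the lower-numbered genes. This split was made after the values were seen and was not tested.

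Chromosome X lay outside the rule. Of its 118 microRNA genes, 5 had a peak in senescent (4.24%), 1 in quiescent (0.847%) and 9 in proliferating cells (7.63%). MIR6089 had a peak in all 3 lists. MIR4767, MIR3978, MIR12129 and MIR718 had one in senescent and in proliferating cells and none in quiescent cells. MIR4536-1, MIR4536-2, MIR1184-2 and MIR1184-3 had one in proliferating cells alone.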
